A study of Mus musculus with 2 samples.

Results

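Tcf7, Lef1, Gata3, Ets1, Satb1, Bach2, Myb and Tox are transcription factors and chromatin regulators that define and maintain the T cell lineage. Their transcripts were compared between naive CD8+ T cells with Bcl11b deleted and wild-type naive CD8+ T cells on 2 microarrays. The 8 genes, of 27597 gene names on the array, were chosen by name, and every non-control spot carrying 1 of these names was taken: 30 spots of 21 probes. Of these probes, 15 were bright enough to be kept, at least 1 for each gene. The knockout mice were Bcl11bF/F/dLck-iCre: an iCre recombinase under the distal Lck promoter, which turns on late in thymocyte maturation, removes the floxed Bcl11b alleles. The comparison mice were wild type, with no iCre transgene in their labels, and both groups were on the C57BL/6 background. Cells low for CD44 and CD25 were sorted to a purity over 90%, per the labels. Knockout RNA was labelled with Cy5 (red) and wild-type RNA with Cy3 (green) on both arrays, with no dye swap, so dye and genotype cannot be told apart in any ratio. The labels call the pairs biological replicates 1 and 2 (array 1 and array 2) and give neither the number of mice behind a sample nor their age.

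Tcf7 and Lef1 encode related HMG-box proteins, TCF-1 and LEF-1, which bind the same DNA motif and recruit either beta-catenin or Groucho-type corepressors of the Tle family. With Gata3, Ets1 and Myb they act in thymocyte development, and in mature CD8+ T cells Tcf7, Lef1, Satb1 and Bach2 are known for keeping the naive or memory state. Tox, another HMG-box protein, is needed for CD4 lineage development and is known for its role in exhausted CD8+ T cells. Bcl11b is itself a zinc-finger factor of the T cell lineage, and its gene is a known target of TCF-1 in thymocytes.

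The promoters are shown first, because factors of this group are known to bind regulatory DNA of one another's genes in developing T cells. Promoter windows of 250 bases before an annotated start were in the RefSeq table (build GRCm38.p6) for 6 of the 8 genes. Short motifs were searched on both strands: CTTTGA as the usual and CTTTGT as the second form of the TCF-1 and LEF-1 motif, AGATAA for GATA factors, GGAAGT for ETS factors, AACGG for MYB and TGAGTCA for BACH factors; no match in these windows overlapped another. The 3 windows below were picked after the matches had been seen, for many, some and no matches, and capitals mark the matches. The first is Lef1 at chr3:131156044-131156293 on the plus strand, 1 of 4 listed windows of that gene. The second is Tcf7 at chr11:52282596-52282845 on the minus strand, 1 of 2 listed windows. The last is Gata3 at chr2:9878601-9878850 on the minus strand, the single window listed.
Lef1: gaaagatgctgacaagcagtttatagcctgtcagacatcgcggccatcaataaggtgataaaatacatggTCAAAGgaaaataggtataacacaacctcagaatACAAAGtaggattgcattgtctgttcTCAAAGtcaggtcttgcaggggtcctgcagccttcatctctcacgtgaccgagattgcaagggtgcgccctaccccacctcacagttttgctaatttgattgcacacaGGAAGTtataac
Tcf7: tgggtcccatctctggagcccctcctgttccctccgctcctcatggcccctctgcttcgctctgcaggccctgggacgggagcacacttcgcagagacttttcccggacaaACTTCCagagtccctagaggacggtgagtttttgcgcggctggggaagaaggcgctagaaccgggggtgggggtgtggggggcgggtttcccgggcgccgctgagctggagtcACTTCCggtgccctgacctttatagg
Gata3: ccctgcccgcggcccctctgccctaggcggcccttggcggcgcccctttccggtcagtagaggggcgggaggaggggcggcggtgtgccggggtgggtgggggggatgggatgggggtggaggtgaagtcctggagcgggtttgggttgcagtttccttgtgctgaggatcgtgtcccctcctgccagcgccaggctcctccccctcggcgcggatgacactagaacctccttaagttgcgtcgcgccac

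The Lef1 window held CTTTGA at 2 places, 180 and 120 bases before the start, CTTTGT 146 bases before it and GGAAGT 12 bases before it. Its CTTTGA and CTTTGT matches lay on the opposite strand and GGAAGT on the strand shown. In the Tcf7 window GGAAGT stood 139 and 26 bases before the start, on the opposite strand. Among all 32851 windows of this length, 13.8% held CTTTGA, 16.5% held CTTTGT, 9.99% held AGATAA, 19.7% held GGAAGT, 14.5% held AACGG and 4.46% held TGAGTCA. The Bach2 window held the usual TCF-1 motif and the MYB motif, and 3 of the 5 windows of Satb1 held an ETS motif, a MYB motif or the second TCF-1 form. The MYB and second TCF-1 matches of Satb1 are the same stretch, read in overlapping windows. The Myb window, like that of Gata3, held none of the 6 motifs. These matches describe letters in the windows and are not binding sites measured here.

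The 2 arrays differed in the spread of their ratios, and this touches every value of the 8 genes. Log2 ratios of knockout over wild type had a standard deviation of 1.01 on array 1 and 0.41 on array 2 across 9273 measured genes, and 2504 genes on array 1 but 263 on array 2 differed over 2-fold. On array 1, 17276 knockout and 10739 wild-type spots of 43379 were well above background. On array 2 the counts were 10955 knockout and 13446 wild-type spots. The medians of 153 negative control spots were 985 units (knockout, Cy5) and 1087 units (wild type, Cy3) on array 1. On array 2 they were 1865 units (knockout) and 1120.2 units (wild type). Bcl11b, the deleted gene, had log2 ratios of -1.45 on array 1 and -1.73 on array 2 (mean -1.59 ± 0.19, SD, n = 2, limma adjusted p = 0.0750), and a further probe had -0.35 and -2.32. Both probes read lower in the knockout on both arrays, without passing the test; Bcl11b passed without background subtraction (adjusted p = 0.0388) and where both channels had to be well above background on both arrays (adjusted p = 0.0391). With median centring its mean was -0.71 (adjusted p = 0.545), with -0.04 on array 1. Knockout RNA still gave Bcl11b signal well above background on each array, and whether its probes lie in the deleted part was not examined. Ddx3y and Eif2s3y, both Y-linked, had log2 ratios of 2.30 and 1.99 on array 1 and of -2.04 and -2.98 on array 2, so the sexes were not matched between the genotypes on either array. The part of sex in the results was not tested.

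The 8 factors read differently on the 2 arrays. On array 1 all 8 genes read over 2-fold higher in the knockout, with log2 ratios between 1.08 and 4.37. On array 2 none did, and the ratios ran between -0.62 and 0.97. The share of all genes over 2-fold higher was 21.1% on array 1 and 1.96% on array 2, and 1.12% on both arrays. The median of the 8 was 2.38 on array 1 and 0.00 on array 2, against 0.05 and -0.01 for all genes. Gata3, Myb, Tox and Ets1 were above 0 on both arrays, as were 30.9% of all genes, whereas Tcf7, Lef1, Satb1 and Bach2 were below 0 on array 2. Tcf7 and Lef1 were below 0 there under every setting run, and Satb1 and Bach2 were at 0.45 and 0.21 with median centring in place of loess, and Satb1 at 0.24 with the mean over its probes.

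**Figure D1:**
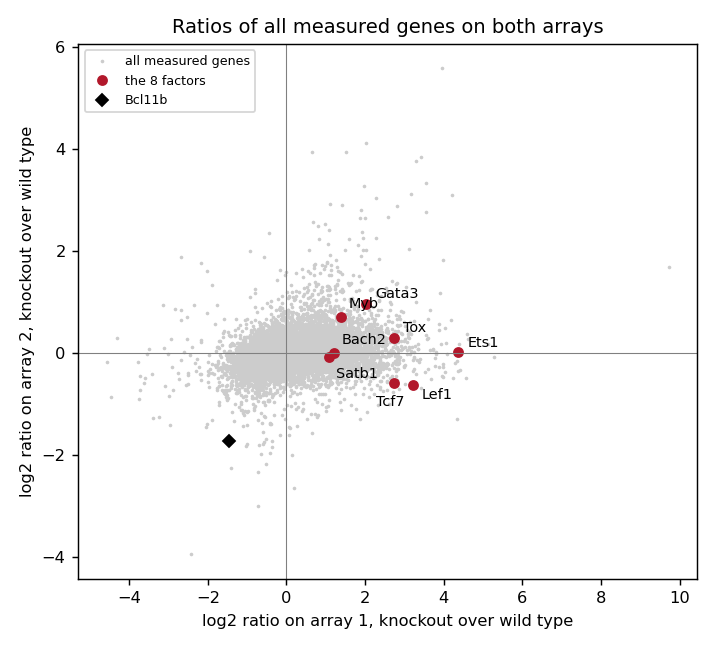
Log2 ratio of knockout over wild type on array 1 (x axis) against array 2 (y axis) for 9273 measured genes, with the 8 factors in red and Bcl11b as a black diamond. The 8 factors lie to the right of 0 on array 1 and between -0.62 and 0.97 on array 2, while Bcl11b is below 0 on both.

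In the test over both arrays (limma, adjusted over all measured genes), 1 of the 8 genes, Ets1, passed, and it was higher in the knockout. Over all genes 1.49% passed, 1.24% higher and 0.248% lower in the knockout. Unadjusted, 6 of the 8 had a p under 0.05, against 9.75% of all genes, and between 2 (scanner ratio, or no filter) and 8 (median centring) did in the other settings. With every probe tested on its own, 0 of the 15 kept probes of the 8 genes passed, against 0.262% of all probes. The pass of Ets1 rests on array 1, since its ratio on array 2 was 0.02. In this fit eBayes estimated infinite prior degrees of freedom and every gene shared a standard error of 0.50, so a large ratio on 1 array was enough to pass, and an exact sign-flip test over 2 arrays cannot give a p below 0.5. Ets1 passed in 1 of the 7 other settings (adjusted p = 0.0253, median centring), and its adjusted p ran up to 0.633 in the others. RNA was taken from bulk sorted cells, so fewer cells of a type and less RNA per cell cannot be told apart. Gata3, Ets1 and Tox were kept through their knockout signal, because wild type was too dim on array 1 for Gata3 and Ets1 and on both arrays for Tox.

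**Figure D2:**
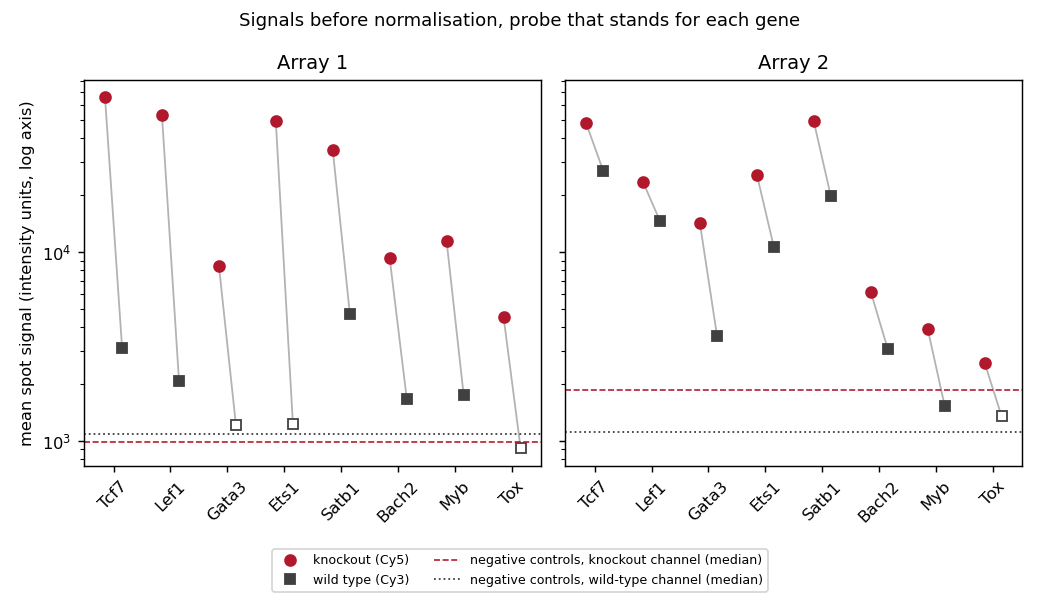
Mean spot signal before normalisation (log axis, intensity units) of the probe that stands for each gene, with knockout as red circles and wild type as dark squares, array 1 on the left and array 2 on the right. Open symbols are not well above background and dashed and dotted lines are the medians of the negative controls; levels of different probes cannot be set against each other. On array 1 the wild-type signals of Tcf7, Lef1 and Ets1 are far below those on array 2.

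Probe positions are those of the array design (mm8), whose gene models were not used here. The HMG-box gene Tcf7 was read by a bright probe (chr11:52096035-52096094, minus strand) with signals of 65897 units in the knockout and 3108 in wild type on array 1. On array 2 the same probe had 48147 units in the knockout and 26977 in wild type. Signals are given before normalisation, in which loess takes out the difference in brightness between the dyes, so a ratio can have another sign than the signals. The normalised log2 ratios of Tcf7 were 2.73 and -0.59 (mean 1.07 ± 2.35, SD, n = 2, limma adjusted p = 0.409). The genotypes were thus far apart on array 1, and on array 2 the sign was turned. Compared with all genes, these ratios stood at percentile 98.4 on array 1 and percentile 3.52 on array 2. A second Tcf7 probe, 717 bases farther from the 3′ end, gave 0.55 and -0.23, with the same signs and smaller size.

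Lef1, which encodes LEF-1, followed the same course. Its brightest probe (chr3:131213273-131213332, plus strand) had 53212 units in the knockout and 2069 in wild type on array 1, and 23499 in the knockout and 14549 in wild type on array 2. Its log2 ratios were 3.22 and -0.62 (mean 1.30 ± 2.71, SD, n = 2, limma adjusted p = 0.222), at percentiles 99.3 and 2.99 of all genes. A second Lef1 probe, whose listed coordinates span 18162 bases and so are not 1 contiguous stretch, gave 0.81 and -0.24. The remaining Lef1 probe was not well above background in any channel. Both Lef1 probes that could be read were higher in the knockout on array 1 and lower on array 2.

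Tox was dim. Its readable probe (chr4:6615142-6615201, minus strand) had 4541 units in the knockout and 912 in wild type on array 1, and 2594 in the knockout and 1346 in wild type on array 2. Wild type was not well above background on array 1 or on array 2, so its level is known only as an upper limit. The log2 ratios were 2.75 and 0.30 (limma adjusted p = 0.101). Under the main processing, the knockout signal stood 2.25-fold above that limit as an average of both arrays. This bound does not hold for every setting. Without background subtraction the mean log2 ratio was 0.76, a smaller difference than the bound. The bound takes the lowest signal well above background on each array where the dim probe's own was lower, and it averages both arrays. Taken singly, array 1 gave at least 4.13-fold and array 2 at least 1.23-fold. The other 2 Tox probes were not well above background in either channel. Tox therefore rests on 1 probe and, in wild type, on a limit rather than a level.

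Gata3 encodes the zinc-finger factor needed for CD4 lineage and early T cell development, and was measured by a single probe (chr2:9775209-9775268, minus strand). The signals were 8475 units in the knockout and 1209.7 in wild type on array 1, and 14149.8 in the knockout and 3606 in wild type on array 2. On both arrays the knockout was higher, with log2 ratios of 2.03 and 0.97 (mean 1.498 ± 0.75, SD, n = 2, limma adjusted p = 0.112). Gata3 stood at percentile 98.0 of all genes on array 2, the highest of the 8, and at percentile 94.7 on array 1. The wild-type signal on array 1 was not well above background.

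Ets1, founding member of the ETS family, had at its brightest probe (chr9:32506840-32506899, plus strand) 49074 units in the knockout and 1233 in wild type on array 1, where wild type was not well above background. On array 2 it had 25677 units in the knockout and 10576 in wild type. The log2 ratios were 4.37 and 0.02 (mean 2.19 ± 3.08, SD, n = 2, limma adjusted p = 0.00242). On array 2 it stood at percentile 54.0 of all genes. The ratio on array 1 is set against a wild-type signal not well above background, so the probe was kept through its knockout signal and the call rests on that value. Ets1 has 3 further probes: a probe 3034 bases from the 3′-most one gave 2.80 and 0.15, and a probe 1982 bases from it gave 1.28 and 0.33. The probe at 1982 bases was well above background in both channels on both arrays. The remaining Ets1 probe was too dim to be kept. All 3 kept probes were higher in the knockout on array 1, over a range of 3.09, and within 0.31 of each other on array 2.

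Myb, a factor of progenitors and early thymocytes that is also active in CD8+ memory cells, had a probe (chr10:20814573-20814632, minus strand) with 10 spots on each array. Averaged over the spots, its signals were 11395 units in the knockout and 1745 in wild type on array 1, and 3919 in the knockout and 1528 in wild type on array 2. Spot ratios ran from 1.19 to 1.58 on array 1 (median 1.43) and from 0.56 to 0.77 on array 2 (median 0.74). The spots share RNA and array and are no replicates; their SD of 0.120 and 0.073 stood beside medians of 0.105 and 0.073 over 245 probes with at least 5 spots. The spots did not overlap between the arrays, which carry separate samples, and spot noise says nothing of the spread between samples. The gene's log2 ratios were 1.39 and 0.71 (mean 1.05 ± 0.48, SD, n = 2, limma adjusted p = 0.432). A further probe 259 bases away gave 2.89 and 0.86, with wild type not well above background on array 1. A probe 21828 bases away gave -0.19 and 0.30, with wild type not well above background on array 2, so the probes of Myb did not share a sign on array 1.

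**Figure D3:**
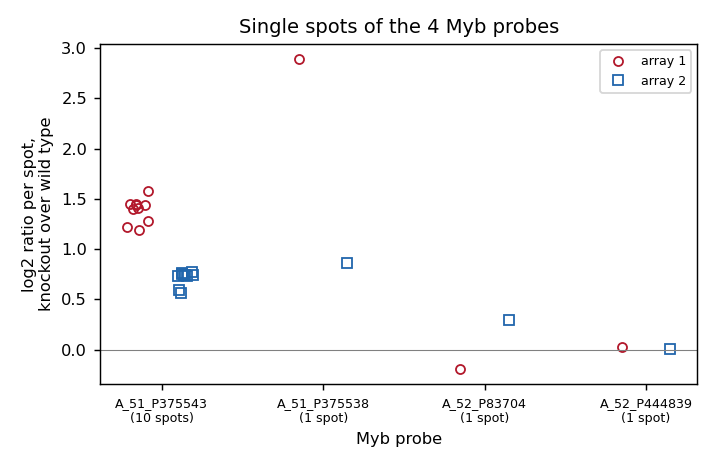
Log2 ratio of knockout over wild type for every spot of the 4 Myb probes, with array 1 as circles and array 2 as squares. The 10 spots of the first probe range from 1.19 to 1.58 on array 1 and from 0.56 to 0.77 on array 2, without overlap.

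Satb1, an organiser of chromatin in T cells, and Bach2, a repressor of effector programmes, had the smallest mean ratios of the 8. Satb1 (chr17:51204741-51204800, minus strand) had 34689.6 units in the knockout and 4716 in wild type on array 1, and 49079.7 in the knockout and 19715 in wild type on array 2, with log2 ratios of 1.08 and -0.07 (mean 0.50 ± 0.81, SD, n = 2, limma adjusted p = 0.888). A second Satb1 probe gave 0.62 and 0.55, positive on both arrays, so the probes disagreed in sign on array 2. Bach2 (chr4:32909704-32909763, plus strand) had 9266 units in the knockout and 1669 in wild type on array 1, and 6151 in the knockout and 3057 in wild type on array 2, with log2 ratios of 1.22 and -0.01 (mean 0.60 ± 0.87, SD, n = 2, limma adjusted p = 0.834). Its other probe was too dim to be kept. For neither gene was a difference between the genotypes repeated on both arrays by the probe that stands for it.

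**Figure D4:**
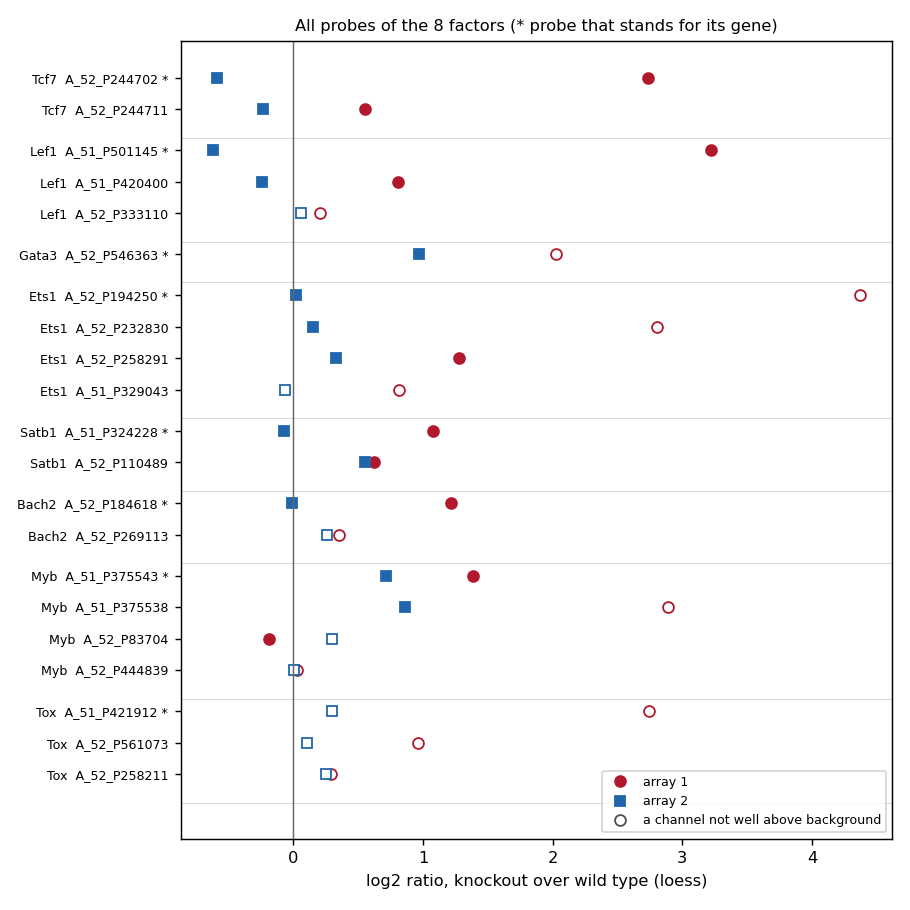
Log2 ratio of knockout over wild type for all 21 probes of the 8 genes, array 1 and array 2, with open symbols where a channel was not well above background and an asterisk at the probe that stands for its gene. On array 1 the probes of some genes differ widely, for example 0.55 to 2.73 for Tcf7, and those of Satb1 less, 0.62 to 1.08. On array 2 all probes lie between -0.62 and 0.97.

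The probes of a gene were compared over the 5 genes with at least 2 kept probes. The range of their ratios on array 1 was 2.18 for Tcf7, 2.41 for Lef1, 3.09 for Ets1, 0.46 for Satb1 and 3.08 for Myb. Among 2113 genes with at least 2 kept probes the median range was 0.62 on array 1 and 0.19 on array 2, and on array 1 Tcf7 stood at percentile 93.3, Lef1 at 94.8, Ets1 at 97.9, Myb at 97.8 and Satb1 at 39.6 of them. The probes of 4 of these genes thus disagreed on array 1 more than those of most genes. On array 2 the ranges were 0.36 for Tcf7, 0.38 for Lef1, 0.31 for Ets1, 0.63 for Satb1 and 0.56 for Myb. The 3′-most kept probe had the highest ratio on array 1 in 4 of the 5 genes, as in 55.2% of 2073 genes, and on array 2 in 0 of the 5, against 52.0%. It was also the brightest kept probe in 5 of 5, against 66.2%.

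The gap between the arrays was larger in the wild-type channel for Tcf7, Lef1, Ets1, Gata3 and Satb1. On normalised log2 levels, array 1 minus array 2 was 0.74 in the knockout and -2.58 in wild type for Tcf7. For Lef1 it was 1.46 in the knockout and -2.38 in wild type, and for Ets1 1.24 in the knockout and -3.11 in wild type. All 3 were brighter in the knockout and dimmer in wild type on array 1. Gata3 had -0.37 in the knockout and -1.43 in wild type, and Satb1 -0.23 in the knockout and -1.38 in wild type. Myb was higher on array 1 in both channels, 2.01 in the knockout and 1.34 in wild type, and Bach2 and Tox differed more in the knockout, 1.02 against -0.20 in wild type for Bach2 and 1.71 against -0.74 for Tox. Over all 11833 kept probes the standard deviation of this gap was 0.57 in the knockout and 0.90 in wild type. These levels follow normalisation of both channels and hold no test. Wild type of Ets1 and Gata3 was not well above background on array 1, so their wild-type gaps rest on a limit there, not a level.

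Genes known as partners or relatives of the 8 factors did not pass the test. Of 33 listed, 19 were measured and 0 passed, which is close to the share of 1.49% over all genes. Their median mean log2 ratio was 0.15, against 0.04 for all genes. Ctnnb1, which encodes beta-catenin, had 1.14 and 0.41 and its other 2 probes 0.50 and 0.21 and 0.75 and 0.38. Tle3, a corepressor of the TCF family, had 0.47 and 0.43. Ets2 had 0.86 and 0.37 and Gabpa, a widely expressed ETS factor, 0.56 and 0.22, both with wild type not well above background on array 1. In the limma fit 0 of the 19 had an unadjusted p under 0.05, against 904 of 9273 genes. The genes named so far were picked for sharing a sign on both arrays. Of the 19, 5 were above 0 on both arrays and 1 below 0 on both, against 30.9% and 30.8% of all genes. Among those that changed sign, Tle4 had 2.05 and -0.30, Elf1 1.60 and -0.12 and Maff -2.52 and 0.70.

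Genes known as targets of the factors in T cells numbered 21, of which 14 were measured and 0 passed in limma, while 8 had an unadjusted p under 0.05, against 9.75% of all genes; their median mean log2 ratio was 0.24. On both arrays 4 of the 14 were above 0 and 4 below 0, against 30.9% and 30.8% of all genes. Slamf6, a receptor of stem-like CD8+ T cells, had 1.09 and 1.30 (limma adjusted p = 0.313), and a further probe 3.07 and 1.29 with wild type not well above background. Ccr7, the lymph node homing receptor, had -1.72 and -0.96 (adjusted p = 0.202) and Cd5, an inhibitory surface receptor, -0.69 and -1.80 (adjusted p = 0.268). These genes were picked for sharing a sign on both arrays and did not pass; with median centring Cd5 was at 0.85 on array 1 (mean -0.23) and Ccr7 had a mean of -0.44. Bcl11b, also listed, was given above.

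**Figure D5:**
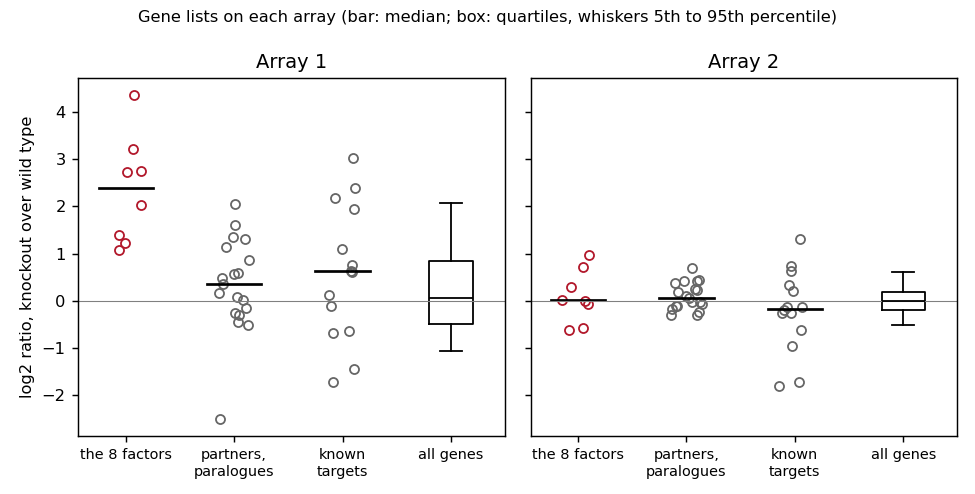
Log2 ratio of knockout over wild type on array 1 and array 2 for the measured genes of the 8 factors, the partner genes and the target genes, with bars at the medians, beside a box for all genes (quartiles, whiskers at the 5th and 95th percentile). The factors lie above 0 on array 1, while the medians of the partner and target genes are 0.35 and 0.62 on array 1 and 0.07 and -0.17 on array 2.

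Genes listed as markers of cell types were read in the bulk RNA, so which cells carried them was not tested. NK cell markers were well above background in 5 of 6 on array 1 and 6 of 6 on array 2 in the knockout, and in 3 of 6 on each array in wild type, and 3 of the 5 measured, Tyrobp, Fcer1g and Klrb1c, passed as higher in the knockout, against 1.24% of all genes. Wild type was not well above background on array 1 for Klrb1c, nor on either array for Fcer1g. Both were kept through their knockout signal, so this count too is a description. The summed level of the NK markers on arrays 1 and 2 was 65226 and 133269 in the knockout and 31461 and 27529 in wild type. Klrd1, which did not pass (limma adjusted p = 0.501), was the brightest of them in every channel. In wild type its log2 level was 14.70 on array 1 and 14.50 on array 2, against 10.90 and 10.42 for Tyrobp, the next. The wild-type sum is thus mostly Klrd1. Ncr1 had log2 ratios of -0.20 and 0.86, with wild type not well above background on array 2, and did not pass either (limma adjusted p = 0.929). Myeloid markers were above background in 9 of 11 in the knockout on both arrays, and in 0 and 3 of 11 in wild type, with summed levels of 26704 and 28502 in the knockout and 5184 and 14276 in wild type, and 5 of 9 measured passed as higher in the knockout. All 5 (Itgax, C1qc, Lyz2, Adgre1 and Csf1r) were kept through their knockout signal, so their count is a description. Wild type was not well above background on array 1 for Itgax and Lyz2, and on neither array for C1qc, Adgre1 and Csf1r. Lyz2 had log2 ratios of 4.03 on array 1 and -0.38 on array 2, so its call rests on array 1. The rest were above 0 on both arrays. Cd68 and Itgam were above background nowhere. The 8 T cell markers were above background in both groups on both arrays, and 0 of the 8 passed in limma, with 2 at an unadjusted p under 0.05. Cd4 was above background in the knockout on array 1 alone and in wild type on both arrays, with log2 ratios of -0.65 and -0.21. Of the B cell markers, Cd79b was above background in every channel (log2 ratios -0.51 and -0.14), Ms4a1 in every channel but wild type on array 1 (1.28 and 0.38) and Pax5 in the knockout on array 1, while Blk, Cd79a and Ebf1 were above background nowhere. The erythroid marker Hba-a1 was likewise above background in every channel but wild type on array 1 (2.56 and 0.30), and Alas2 nowhere. The part of these markers in the values of the 8 factors was not tested.

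The genes whose ratios on the 2 arrays lay nearest to each factor's were named by Euclidean distance, as a description over 2 arrays; not every gene so chosen is reported here. Ly75 and Akap13 stood near to Tcf7, Inpp4b and Myc to Lef1, Lgals3 and Plxdc1 to Gata3, H3f3a to Ets1, Paics and Fam102b to Satb1, Heatr5a and Gnb1 to Bach2, S100a11 and Serinc3 to Myb and Rbis and Lrp12 to Tox. H3f3a, a histone gene, had 4.28 and -0.20 and passed the test (limma adjusted p = 0.00644), which, as for Ets1, rests on array 1.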

How the data were processed

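RNA of sorted cells was measured on 2 two-colour Agilent arrays. Per the labels' protocols it was amplified linearly and labelled chemically. The submitters' processing notes name Agilent Feature Extraction 9.5.3.1 for the scans. The deposited scanner files hold linear intensity values (mean signal and local background per channel), not normalized, per the file headers, and the scanner software's log10 ratios of red over green. The deposited value table matched these log10 ratios to within 0.005 at 45018 spots, with medians of 0 and 0.

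From the intensities, limma 3.58.1 in R 4.3.3 corrected background with normexp (offset 50) and normalised log2 ratios by loess; control and flagged spots had weight 0. Spots of a probe were averaged. A probe was kept where the same channel was flagged well above background by the scanner software on array 1 and array 2 (11833 probes, 9273 genes); the brightest stood for its gene. The test was limma's lmFit with eBayes, two-sided, Benjamini-Hochberg over all genes, threshold 0.05. The smallest passing ratio was 1.68 in size. Of 41174 gene probes, 24375 were named by accession in RefSeq (GRCm38.p6), 6301 by current and 2426 by older symbol, and 8072 kept the file's name. Probe distances use the array design's mm8 coordinates, per the file headers. Promoter motifs were searched with Python 3.11.15. The fit was tested on simulated data. The members and gene lists were chosen with earlier results of these data known. Named are the 8 genes with every probe, up to 4 genes per list with the same sign on both arrays ranked by the smaller ratio, the 2 genes nearest each member, and Bcl11b. A few genes under this rule and the marker lists are not reported here. Both arrays lay on 1 slide, so no batch was tested. Alternatives changed background, normalisation, filter, spread, ratio source and the probe that stands for a gene. The number of arrays limits the precision.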

Additional observations from a re-analysis of the deposited data

How the results depend on the processing

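The 8 mean log2 ratios stayed above 0 under every setting with both arrays in which they could be measured; with both channels required above background, Gata3 and Tox dropped out and Ets1 was read by another probe (0.80). Their sizes moved: with median centring Satb1 had 1.502, Bach2 1.39 and Tcf7 2.08, against 0.50, 0.60 and 1.07, and Tox had 3.03 with the scanner ratio and 0.76 without background subtraction, against 1.52. Counts of calls moved with the processing: 138 genes (115 higher, 23 lower) became 35 (27 and 8) without background subtraction, 64 (63 and 1) with median centring, 39 (25 and 14) with both channels well above background on both arrays and 147 (123 and 24) with the mean over a gene's probes. Of these calls 83.3% were higher in the knockout, against 98.4% with median centring, which set the median of all genes at 0.68 in place of 0.04, and 64.1% with the stricter filter. The count was 0 in limma with the scanner software's log ratio, with no filter and with ratios scaled to the same spread, where 574, 2478 and 902 genes had an unadjusted p under 0.05. Ets1, the 1 factor past the threshold, stayed past it with median centring and in 0 of the other settings. Of the targets, 1 passed in place of 0 without background subtraction (Bcl11b, adjusted p = 0.0388), with the stricter filter (Bcl11b, 0.0391) and with the mean over probes (Slamf6, 0.0281). Probes past it numbered 31, against 17, 1, 0, 0, 50 and 0 in the order of settings in which genes gave 35, 64, 0, 0, 39 and 0; no probe of the 8 genes passed in any. Ets1 had means of 1.77 (adjusted p = 0.162), 3.12 (0.0253), 2.86 (0.633), 2.19 (0.472), 0.80 (0.5001), 1.71 (0.517) and 1.49 (0.0796) with no background subtraction, median centring, scanner ratio, no filter, both channels, scaled spread and mean over probes. With both channels required, Akap13 had -0.074 and Myc -0.68, read by other probes; leaving out 1 array gave H3f3a -0.20 to 4.28, and without replicate 1 Tcf7, Lef1, Satb1 and Bach2 were below 0 too. The cause of each was not tested, except that a stricter filter leaves fewer probes. Counts of calls without 1 array could not be run, as 1 array leaves no residual degree of freedom. The main test takes 1 ratio of knockout over wild type per array, so it is already paired by array. That leaves nothing further to block on. A wild-type channel not well above background limits Tox on both arrays and Gata3 and Ets1 on array 1.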
